A study of Zea mays with 48 samples.

Results

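This account concerns 150 maize genes whose RNA was higher in embryos cut out by laser capture microdissection (LCM) than in embryos dissected by hand and in endosperm, both at 5 days after pollination (DAP). CPM is the number of reads of a gene over the reads of all genes in a library, scaled to 1000000. A candidate had at least 5 CPM in each of the 12 LCM libraries and a mean under 10 CPM in the 6 libraries of hand-dissected embryos at 5 DAP, with no limit on endosperm. Of 39656 gene models, 8270 met the LCM minimum and 679 met both limits. The members were chosen by measured CPM: these 679 were ranked by the lower of the LCM means at 5 and 3 DAP over the higher of the means of hand-dissected embryos and endosperm at 5 DAP, to which 0.5 CPM was added, and the first 150 are the members.

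Kernels came from reciprocal crosses of the inbred lines B73 and Mo17: in MB the seed parent was Mo17 and the pollen came from B73, and in BM these roles were exchanged. Embryos were collected by LCM at 3 and 5 DAP and by hand (manual embryos) at 5, 7, 9, 11 and 13 DAP, and endosperm was collected at 5 DAP. Each of the 8 sample kinds had 3 replicate libraries of each cross, 48 in all, and all kernels were hybrids with no other treatment. A replicate pooled many hand-dissected embryos from several ears, and how many LCM sections went into a library is not given in the sources used here. The LCM and manual embryos of 5 DAP differ in collection and in every step that goes with it, which cannot be told apart from the cells each method took.

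In flowering plants, one sperm cell fertilises the egg cell to form the zygote and the other fertilises the central cell to form the endosperm. The maize zygote divides into a small proembryo with an embryo proper and a suspensor, embedded in the embryo-surrounding region of the endosperm, before a shoot meristem and the scutellum become distinct. A zygote starts with RNA from the egg cell, and its own transcription adds to that pool as it divides. In pooled tissue, fewer cells of a type and less RNA per cell cannot be told apart.

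Total counts per library ranged from 7130090 to 21698127. Among the 5 embryo markers, lec1, a regulator of embryo identity, had a mean of 921 CPM in LCM embryos at 5 DAP and 531 CPM at 3 DAP, against 57.7 CPM in manual embryos at 5 DAP and 0.334 CPM in endosperm. The homeobox gene wox2a, which marks the early embryo, had a mean of 31.9 CPM in LCM embryos at 5 DAP and 34.1 CPM at 3 DAP, against 12.5 CPM in manual embryos at 5 DAP and 35.8 CPM in endosperm, so it did not separate LCM embryos from endosperm. The meristem gene wus1 had 1.22 CPM in LCM embryos at 5 DAP and 0.145 CPM at 3 DAP, against 1.02 CPM in manual embryos at 5 DAP and 0.302 CPM in endosperm. The embryo gene yab14 ranged from 0.371 to 26.9 CPM in MB of LCM embryos at 5 DAP, with none in BM. At 3 DAP it had none in MB and 0 to 25.2 CPM in BM. Manual embryos at 5 DAP had 79.3 to 88.7 CPM of it in MB and 0.882 to 2.02 CPM in BM, and endosperm a mean of 0.0521 CPM. The shoot meristem gene kn1 ranged from 0 to 11.1 CPM in LCM embryos at 5 DAP and from 0 to 37.3 CPM at 3 DAP, against 70.1 to 83.8 CPM in MB and 0.621 to 0.831 CPM in BM of manual embryos at 5 DAP. Genes of the embryo-surrounding endosperm were also abundant in the LCM libraries, with a mean of 4467 CPM for esr1 at 5 DAP and 932 CPM at 3 DAP. The part that embryo-surrounding RNA has in the members' levels was not tested. None of the 17 marker gene models was a member. Replicates correlated least in LCM embryos at 3 DAP, with a lowest Pearson r of log2(CPM + 1) across genes of 0.927 in MB and 0.916 in BM, against at least 0.979 in all other groups. MB replicate 1 and BM replicate 3 of that age stood apart, and the comparisons by age are given with and without them. In LCM embryos at 5 DAP, MB replicate 1 also differed more from the other MB replicates than these did from each other. The chi-square of the counts against sampling noise, per degree of freedom, was 79.6 and 82.4, against 27.0 between the others.

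The rule fixes the contrast between LCM and manual embryos at 5 DAP, so the following levels are a description with no test. The 150 members together had 5861, 6080 and 8604 CPM in the MB libraries and 9766, 9990 and 13896 CPM in the BM libraries of LCM embryos at 5 DAP. At 3 DAP the sums were 12330, 13466 and 23465 CPM in MB and 12308, 16325 and 22319 CPM in BM, the highest of each cross being a library that stood apart. In manual embryos at 5 DAP the sums were 384 to 546 CPM in MB and 533 to 708 CPM in BM, and in endosperm they were 509 to 592 CPM in MB and 518 to 589 CPM in BM. The median member had 35.5 CPM in LCM embryos at 5 DAP and 47.9 CPM at 3 DAP, against 2.73 CPM in manual embryos at 5 DAP and 1.42 CPM in endosperm. In endosperm, 31 members had a mean of at least 5 CPM, up to 31.8 CPM, and 56 had a higher mean than in manual embryos at 5 DAP. Over the 8270 genes at the LCM minimum, the median lay between 37.5 and 52.2 CPM in all 8 sample kinds. The ranking ratio ran from 61.3 to 3.88 with a median of 6.59. At the threshold, GRMZM2G013463, GRMZM2G110988 and GRMZM2G129083 had ratios of 3.89, 3.88 and 3.88, and the next genes outside, GRMZM2G104425, GRMZM2G130505 and GRMZM2G035552, had 3.88, 3.87 and 3.86.

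**Figure D1:**
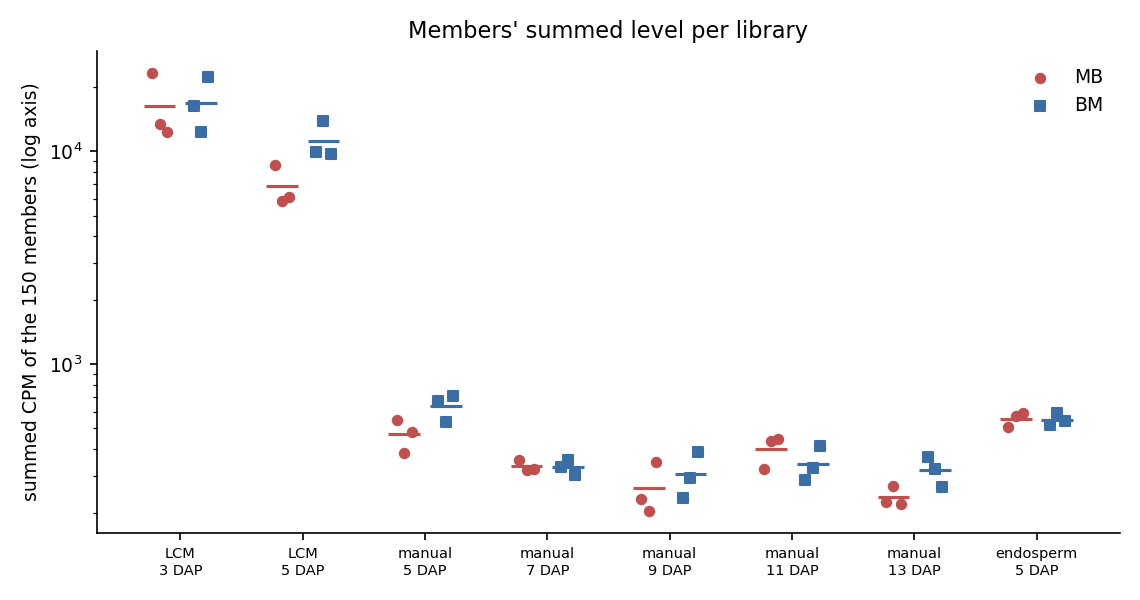
Summed CPM of the 150 members (log axis) in each of 48 libraries, by sample kind, with MB as circles, BM as squares and bars for the mean of 3 libraries. All LCM libraries sit between 5861 and 23465 CPM, and all manual and endosperm libraries between 205 and 708 CPM.

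Of the 12 members of highest rank, 6 matched an entry of the names table and none of them had an informative name. GRMZM2G009804, first in rank, had 141, 123 and 159 CPM in MB and 364, 659 and 336 CPM in BM of LCM embryos at 5 DAP. In LCM embryos at 3 DAP it had 456, 163 and 249 CPM in MB and 247, 125 and 282 CPM in BM. The crosses did not overlap at 5 DAP, MB being the lower, and they overlapped at 3 DAP. Manual embryos of 5 DAP had 1.23 to 3.49 CPM of it and endosperm had 2.81 to 4.28 CPM.

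GRMZM2G045082, second in rank, was the most abundant member per length in LCM embryos at 3 DAP, with a mean of 3377 FPKM, the authors' value of fragments scaled to gene length and library size. Its CPM in LCM embryos was 584, 244 and 149 in MB and 246, 557 and 371 in BM at 5 DAP. At 3 DAP it was 3479, 940 and 915 in MB and 1834, 1106 and 1856 in BM. Every library of 5 DAP lay below every library of 3 DAP, and both crosses overlapped at each age. It had 2.41 to 7.59 CPM in manual embryos at 5 DAP and 1.04 to 11.2 CPM in endosperm.

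AC199541.4_FG004, next in rank, ran the other way with age. It had 137, 177 and 173 CPM in MB and 236, 248 and 313 CPM in BM of LCM embryos at 5 DAP. The 3 DAP libraries had 65.7, 66.6 and 78.4 CPM in MB and 36.4, 57.7 and 73.0 CPM in BM. All 5 DAP libraries lay above all 3 DAP libraries, and no read of the gene was counted at 9, 11 or 13 DAP or in endosperm.

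GRMZM2G148485, GRMZM2G460383 and GRMZM2G450228 were also abundant at both ages. GRMZM2G148485 had a lowest, median and highest value of 342, 434 and 904 CPM at 5 DAP and 516, 758 and 2037 CPM at 3 DAP. GRMZM2G460383 had 155, 308 and 799 CPM at 5 DAP and 243, 439 and 905 CPM at 3 DAP. GRMZM2G450228 had 80.5, 334 and 465 CPM at 5 DAP and 364, 516 and 834 CPM at 3 DAP, with no read in endosperm. For all 3 the ranges of both ages overlapped.

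The other 6 of the first 12 had LCM medians of 36.1 to 257 CPM. GRMZM2G091579 had a median of 75.8 CPM at 5 DAP and 257 CPM at 3 DAP, and GRMZM2G460566 had 92.4 CPM at 5 DAP and 170 CPM at 3 DAP. GRMZM2G010912 had a median of 108 CPM at 5 DAP and 96.4 CPM at 3 DAP, and GRMZM2G067424 had 59.5 CPM at 5 DAP and 59.3 CPM at 3 DAP. GRMZM2G152860 had a median of 38.9 CPM at 5 DAP and 68.0 CPM at 3 DAP. GRMZM2G366313 varied most widely of these 6, with 12.2 to 304 CPM at 5 DAP and 9.89 to 105 CPM at 3 DAP. Endosperm held no read of GRMZM2G091579 or GRMZM2G010912.

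The names table, of the assembly Zm-B73-REFERENCE-NAM-5.0, gave 8 members an informative name. GRMZM2G456746 is Ea1, the egg apparatus gene whose small protein, made by the egg cell and synergids, guides the pollen tube into the ovule. Its CPM in LCM embryos at 3 DAP was 295, 157 and 127 in MB and 86.0, 96.1 and 119 in BM. In LCM embryos at 5 DAP it was 32.0, 8.15 and 11.7 in MB and 61.8, 71.8 and 57.5 in BM. Manual embryos at 5 DAP had 0.144, 0.225 and 0.188 CPM in MB and 1.63, 3.66 and 3.26 CPM in BM. MB was the higher at 3 DAP and the lower in both collections at 5 DAP, without overlap in any of the 3 sample kinds. From 7 DAP on, no library had more than 0.0786 CPM of it, and endosperm had no read. The gene model matched 2 neighbouring entries of the table, so reads of near-identical copies may be divided between them.

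Among the other named members, GRMZM2G103251 (TRAF29) had 19.1 to 183 CPM in LCM embryos at 5 DAP, 141 to 536 CPM at 3 DAP and at most 14.4 CPM in manual embryos at 5 DAP. GRMZM2G019353 (SMR4), of the SIAMESE-related family of inhibitors of cyclin-dependent kinases, had 21.9 to 38.8 CPM in LCM embryos at 5 DAP and 21.0 to 89.3 CPM at 3 DAP. GRMZM2G133413 (cycD4), a D-type cyclin, which partners such kinases at entry into the cell cycle, had 25.1 to 48.5 CPM at 5 DAP and 28.1 to 123 CPM at 3 DAP. Both cell cycle genes overlapped between the LCM ages. GRMZM2G155329 (chi1), chalcone isomerase of flavonoid synthesis, had 16.5 to 82.8 CPM at 5 DAP and 33.6 to 117 CPM at 3 DAP. GRMZM2G375707 (MADS42), of the MADS-box family of transcription factors, had 13.1 to 94.7 CPM at 5 DAP and 56.7 to 188 CPM at 3 DAP. GRMZM2G342856 (GNAT32), of the GNAT acetyltransferase family, was among the least abundant, with 5.39 to 39.2 CPM at 5 DAP and 7.19 to 34.3 CPM at 3 DAP. GRMZM5G891783 (bZIP34, of the bZIP family of transcription factors) matched 2 entries and had 6.61 to 82.6 CPM at 5 DAP and 42.5 to 160 CPM at 3 DAP.

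**Figure D2:**
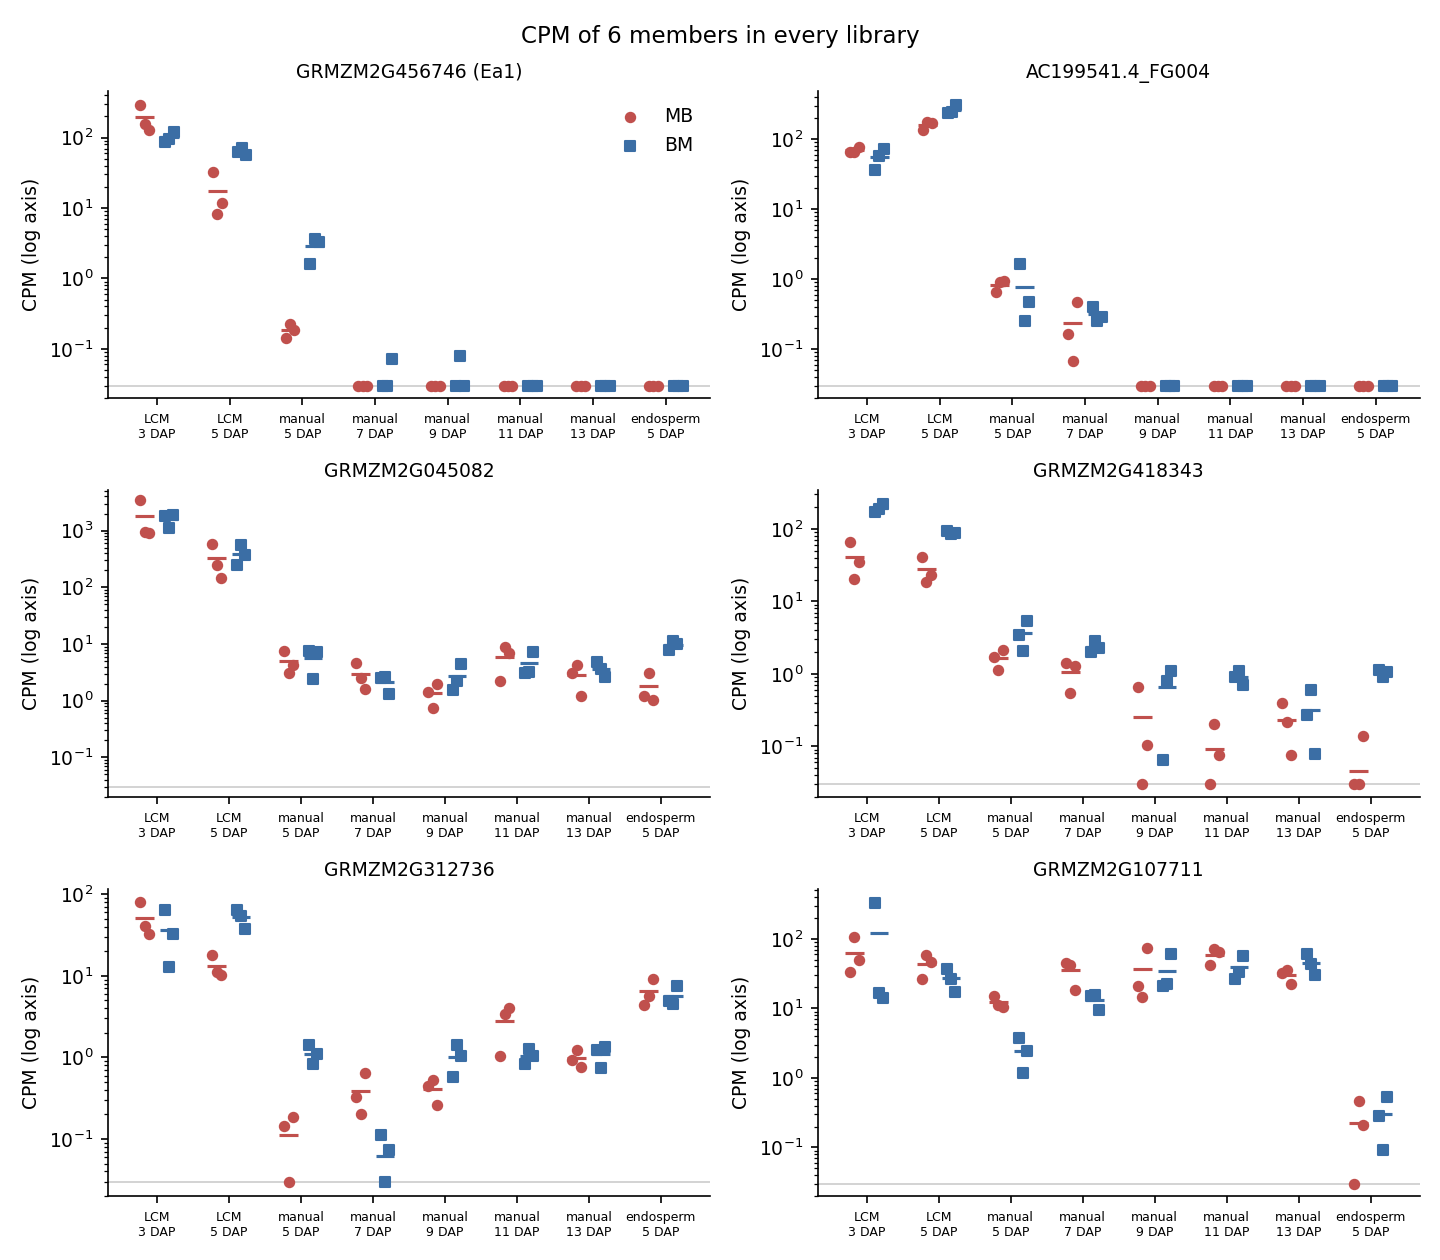
CPM (log axis) of 6 members in every library, by sample kind, with MB as circles, BM as squares and bars for the mean of 3 libraries; values under 0.03 CPM are drawn on the grey line. Ea1 falls under 0.1 CPM from 7 DAP, GRMZM2G418343 is lower in MB than in BM in both LCM kinds, and GRMZM2G107711 stays above 9 CPM from 7 to 13 DAP.

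The deposited FPKM did not bear out the contrast for every member. The ranking ratio formed from FPKM was at least 3 for 131 members, from 1 to 3 for 9 and under 1 for 10. For GRMZM5G891783 the mean FPKM was 2.79 in LCM embryos at 5 DAP and 3.99 at 3 DAP, against 3.68 in manual embryos and 3.61 in endosperm at 5 DAP. For AC199541.4_FG004 it was 28.9 in LCM embryos at 5 DAP and 9.69 at 3 DAP, against 12.4 in manual embryos at 5 DAP, where counts gave at most 1.63 CPM. The length implied by counts and FPKM was under 200 bases for 6 members, and 36 members had a library with reads but an FPKM of 0. Reads shared with overlapping or similar gene models may enter either value, and their part was not tested.

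The members had features that the ranking did not use. The names table matched 88 of them (58.7%), against 463 of the 679 genes meeting both limits (68.2%). It matched 6556 of the 8270 genes at the LCM minimum (79.3%) and 47.3% of all 39656 gene models. The median length implied by counts and FPKM was 1290 bases for members, 1333 bases for the 678 genes meeting both limits that had a value, and 1718 bases for 8269 genes at the LCM minimum. Among the matched members, 5 pairs lay within 5 table entries of each other, and 3 of these were directly adjacent. The same count was not made for other genes. Beside Ea1 on chromosome 7 lay GRMZM2G152179, which had 23.3, 14.9 and 8.22 CPM in MB and 44.2, 82.4 and 27.0 CPM in BM of LCM embryos at 5 DAP. As for Ea1, MB was the lower at that age without overlap. GRMZM2G351484, 4 entries further on, had 73.9, 70.8 and 36.8 CPM in MB and 75.3, 179 and 76.0 CPM in BM. Both other adjacent pairs, GRMZM5G832229 with GRMZM2G146740 and GRMZM2G358956 with GRMZM2G058021, were on chromosome 3.

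Levels in manual embryos after 5 DAP played no part in the choice of members. Their median was 1.26 CPM at 7 DAP, 0.749 CPM at 9 DAP, 1.10 CPM at 11 DAP and 0.658 CPM at 13 DAP, and 114 of 150 had a higher mean at 7 than at 13 DAP. Groups formed after these values were seen show the spread. Mean levels stayed under 0.1 CPM at 9, 11 and 13 DAP for 24 members of 150, against 29 of the 679 genes meeting both limits (4.27%), and those 29 include the 24. The limit on the manual level at 5 DAP favours low levels later on, and no test was made. No read at these ages was found for 6 members, which allows a level of up to 0.011 CPM (3 counts over the 18 libraries, counting error only). Ea1 and 6 of the first 12 in rank were among the 24, and 8 of the 24 had no endosperm read either. At least 5 CPM at some age from 7 to 13 DAP was kept by 26 members, and 100 lay between both limits.

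GRMZM2G107711 was the most abundant member in later embryos, with 9.34 to 44.8 CPM at 7 DAP, 14.7 to 73.1 CPM at 9 DAP, 26.5 to 70.2 CPM at 11 DAP and 22.1 to 59.6 CPM at 13 DAP. Endosperm held at most 0.523 CPM of it. Its LCM level at 3 DAP was 32.9, 106 and 49.3 CPM in MB and 332, 16.6 and 13.9 CPM in BM, with 1 BM library far above the others. After it came GRMZM2G124573 with means of 11.0 CPM at 7 DAP and 16.5 CPM at 13 DAP, and GRMZM2G070475 with 3.15 to 8.43 CPM at 7 DAP and 6.20 to 16.3 CPM at 13 DAP. GRMZM2G075294 had 6.59 to 16.1 CPM over the 24 libraries from 7 to 13 DAP, and GRMZM2G358956 had 3.24 to 13.8 CPM.

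**Figure D3:**
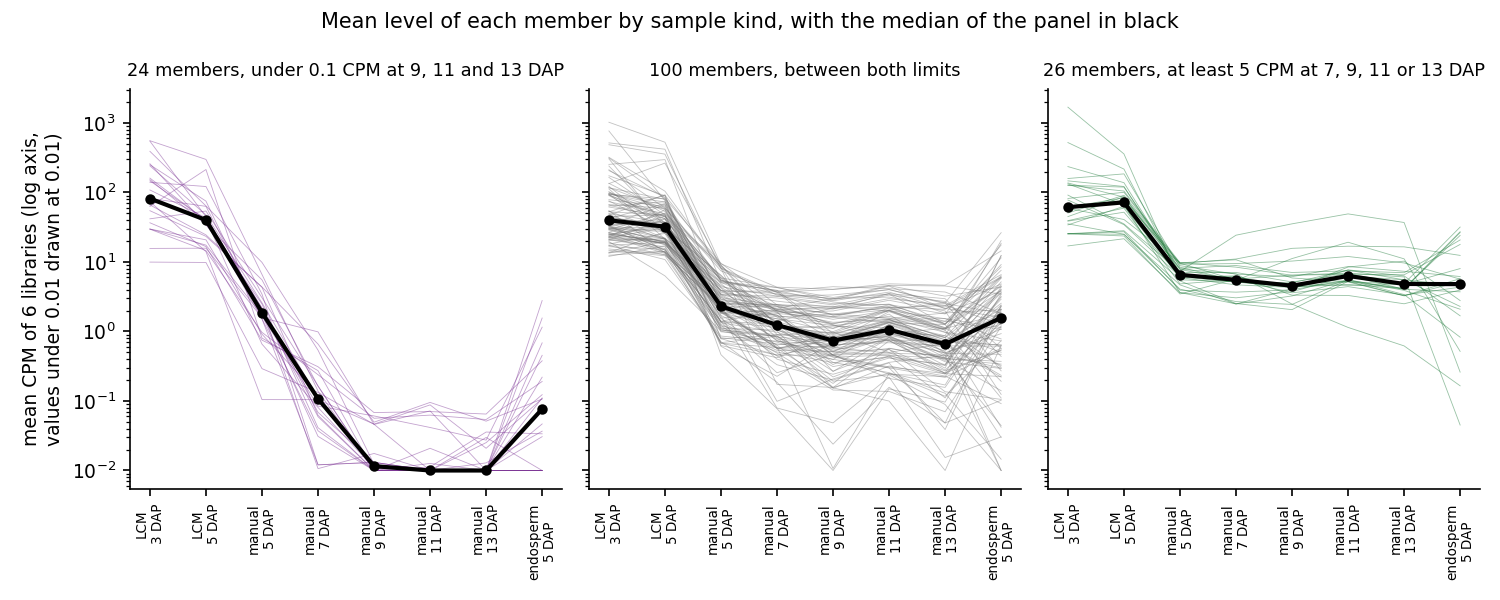
Mean CPM of 6 libraries (log axis, values under 0.01 drawn at 0.01) in each sample kind, with 1 thin line per member and the median of the panel in black. The 24 members on the left drop to under 0.1 CPM at 9, 11 and 13 DAP, while the 26 on the right hold a median of 4.56 to 6.30 CPM from 7 to 13 DAP.

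Between 7 and 13 DAP most members with a called change fell. With edgeR's quasi-likelihood test and Benjamini-Hochberg adjustment over all genes, called at an adjusted p under 0.05, 47 of the 109 members with enough reads were lower and 9 higher at 13 than at 7 DAP. Over all 22428 genes tested, 28.6% were lower and 27.9% higher, and of the 613 tested that met both limits 33.4% were lower and 14.2% higher. The other 41 members had too few reads for the filter. With no filter, 60 of 150 members were lower and 9 higher, where 21.6% of all 32633 genes were lower and 19.4% higher.

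MADS42 had at most 0.0461 CPM at 13 DAP and 0.201 to 1.75 CPM at 7 DAP (log2 fold change -5.81 ± 0.83 SE, adjusted p = 2.6e-05). GNAT32 likewise had at most 0.0461 CPM at 13 DAP and 0.408 to 1.68 CPM at 7 DAP (log2 fold change -5.70 ± 0.75, adjusted p = 1.1e-05). In both, no library of 13 DAP reached a library of 7 DAP, and with 1 of the 6 libraries of 13 DAP above 0 the fitted fold depends on the prior count. GRMZM2G118191 fell by 4.41 and GRMZM2G069444 by 3.41 on the log2 scale, and the D-type cyclin cycD4 had 0.942 to 4.06 CPM at 13 DAP and 4.97 to 7.15 CPM at 7 DAP (log2 fold change -1.28 ± 0.22, adjusted p = 0.00012).

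Among the members higher at 13 DAP, GRMZM2G366681 had 12.6, 14.7 and 15.6 CPM in MB and 7.08, 5.85 and 5.85 CPM in BM at 13 DAP, against 1.65, 2.01 and 2.98 CPM in MB and 3.60, 2.55 and 2.10 CPM in BM at 7 DAP (log2 fold change 2.02 ± 0.28, adjusted p = 3.5e-05). The ages did not overlap in either cross. GRMZM2G312736 rose by 2.35 ± 0.50 on the log2 scale (adjusted p = 0.00087), with 0.737 to 1.34 CPM at 13 DAP and 0 to 0.642 CPM at 7 DAP, and GRMZM2G070475 rose by 1.16 ± 0.29 (adjusted p = 0.0043). GRMZM2G138441 rose by 1.08 ± 0.38 (adjusted p = 0.026), and this call was lost on leaving out any 1 of 6 libraries: all 3 BM replicates at 7 DAP, BM replicates 1 and 2 at 13 DAP and MB replicate 2 at 13 DAP (log2 fold change 0.894 to 1.04, adjusted p 0.0518 to 0.0759).

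Within LCM embryos, the members called between the ages were mostly lower at 5 DAP, as were the genes they were drawn from. The rule took the lower of both LCM means and did not contrast the ages directly. Its limit and divisor used manual embryos and endosperm of 5 DAP alone, which can favour genes already falling by that age. The lower counts are therefore not independent of the choice of members. The edgeR test, with cross as a term, called 30 of 150 members lower and 1 higher at 5 than at 3 DAP, where 7.04% of 20168 genes were lower and 2.85% higher. Of the 679 genes meeting both limits, members included, 139 (20.5%) were lower and 3 higher, so the members' share was close to that of the genes they were chosen from. Of the 8270 genes at the LCM minimum, before the limit on manual embryos, 8.39% were lower and 3.51% higher. DESeq2 called 49 members lower and 6 higher, limma on log2(FPKM + 1) 31 lower and 7 higher, and the fit over all 48 libraries 73 lower and 12 higher. The median log2 fold change was -0.66 over the members and -0.02 over all genes. Without both libraries that stood apart, 22 members were lower, 19 of them among the 30, and 5 were higher, where 8.55% of 20640 genes were lower and 6.1% higher, and the members' median was -0.25. The count of lower members dropped to 17 without MB replicate 3 and 19 without MB replicate 2 of 5 DAP, and that of higher members ran up to 5 (without MB replicate 1 of 3 DAP), with 3 without BM replicate 1 and 2 without BM replicate 2 or MB replicate 3 of 3 DAP. Shares of all genes are not given for the fits without 1 library.

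The largest fall was that of GRMZM2G375602. It had 87.6, 5.66 and 10.2 CPM in MB and 38.3, 56.6 and 70.1 CPM in BM at 5 DAP, against 281, 420 and 399 CPM in MB and 708, 563 and 913 CPM in BM at 3 DAP. All 5 DAP libraries lay below all 3 DAP libraries (log2 fold change -3.70 ± 0.57, adjusted p = 0.0017). GRMZM2G040020 had 5.75 to 103 CPM in MB and 17.7, 15.3 and 37.8 CPM in BM at 5 DAP, against 194 to 442 CPM at 3 DAP (log2 fold change -3.41 ± 0.60, adjusted p = 0.0036). GRMZM2G074293 had 95.4, 12.7 and 19.8 CPM in MB and 7.32, 36.2 and 33.2 CPM in BM at 5 DAP, against 138 to 377 CPM at 3 DAP (log2 fold change -3.06 ± 0.52, adjusted p = 0.0031). In these 3 genes MB replicate 1 was the highest library of 5 DAP.

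GRMZM5G888934 fell by 3.51 ± 0.71 on the log2 scale (adjusted p = 0.0077), and by 2.57 without both libraries that stood apart, where the call was lost (adjusted p = 0.061). The abundant GRMZM2G045082 fell by 2.43 ± 0.47 (adjusted p = 0.0059), Ea1 by 2.24 ± 0.59 (adjusted p = 0.027) and cycD4 by 1.40 ± 0.37 (adjusted p = 0.028). The only member called higher at 5 DAP was AC199541.4_FG004, whose values stand above (log2 fold change 1.54 ± 0.26, adjusted p = 0.0028). Of the 24 members nearly without reads from 9 DAP, 10 were lower and 1 higher at 5 than at 3 DAP, of the 26 that kept at least 5 CPM 3 were lower, and of the 100 between 17 were lower. Endosperm markers moved along with age in the same libraries: the 4 genes of that list summed to 1.97 to 10.1 CPM at 5 DAP and 134 to 555 CPM at 3 DAP, with o2 at 0 in all 12. The 5 genes of the transfer layer and embryo-surrounding region summed to 2504 to 24506 CPM at 5 DAP and 1164 to 5008 CPM at 3 DAP, ranges that overlapped. The part of these tissues in the age differences was not tested.

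**Figure D4:**
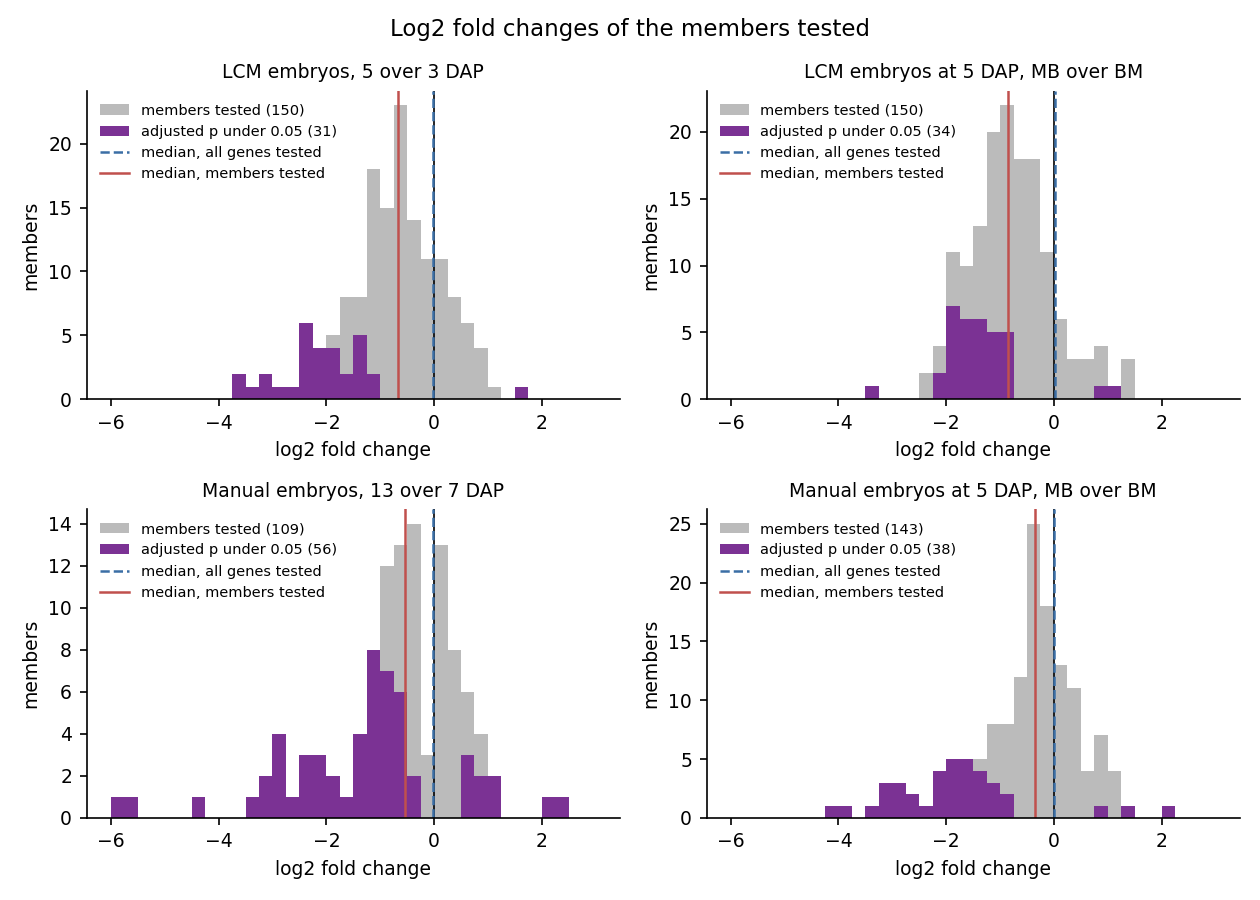
Number of members by log2 fold change in 4 comparisons, with members of adjusted p under 0.05 in purple, the members' median as a solid red line and the median of all genes tested as a dashed blue line. The members' median is -0.66 for LCM embryos by age, -0.85 for the crosses in LCM embryos at 5 DAP, -0.53 for manual embryos of 13 over 7 DAP and -0.35 for the crosses in manual embryos at 5 DAP.

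The reciprocal crosses exchange the seed and the pollen parent, and MB was tested against BM. Over both LCM ages, with age as a term, edgeR called 1 member lower in MB and none higher, where 0.0645% of 20168 genes were lower and 0.0198% higher, and 37 members (24.7%) had an unadjusted p under 0.05, against 11.6% of all genes and 22.2% of the 679 meeting both limits. DESeq2 called 6 members lower and 1 higher, where 1.63% of all genes were lower and 0.793% higher. The 1 member was GRMZM2G418343, with 41.4, 18.6 and 23.3 CPM in MB and 92.3, 85.8 and 88.1 CPM in BM at 5 DAP. At 3 DAP it had 65.6, 20.6 and 34.7 CPM in MB and 172, 188 and 223 CPM in BM. MB lay below BM at each age without overlap (log2 fold change -2.11 ± 0.32, adjusted p = 0.031). Without MB replicate 1 of 3 DAP 3 members were lower and 1 higher, and without MB replicate 1 of 5 DAP, BM replicate 1 or BM replicate 2 of 3 DAP the call of GRMZM2G418343 was kept, as 1 lower member. Leaving out any other of the 12 libraries lost it (log2 fold change -2.15 to -1.93, adjusted p 0.0552 to 0.0987), leaving 0 members lower. Without both libraries that stood apart, 6 members were lower and 1 higher, where 1.11% of all genes were lower and 0.310% higher.

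The change of the cross difference from 3 to 5 DAP was tested as an interaction. edgeR called no member and 0.0% of 20168 genes, while 36 of 150 members had an unadjusted p under 0.05, against 13.3% of all genes and 15.5% of the 679 meeting both limits. DESeq2 called 15 members and 3.01% of all genes, and limma on log2(FPKM + 1) called 5 members and 0.264% of all genes. edgeR without both libraries that stood apart called 6 members and 0.984% of all genes, without MB replicate 1 of 5 DAP 4 members and 12 of all genes, and without BM replicate 3 of 3 DAP 2 members and 20 of all genes. The median interaction of the members was -0.53 on the log2 scale, the MB over BM difference being the lower at 5 DAP, against -0.01 over all genes, with 53 of 150 members positive and values from -4.55 to 2.49. TRAF29, not called, had 85.0, 19.1 and 44.7 CPM in MB and 181, 183 and 114 CPM in BM at 5 DAP, and at 3 DAP 536, 468 and 397 CPM in MB and 168, 213 and 141 CPM in BM, with an interaction of -3.19 ± 0.65 (adjusted p = 0.11).

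Because the crosses differed in mean summed level at 5 DAP, LCM and manual embryos of that age were each tested alone, 3 MB against 3 BM libraries. The sums of the crosses did not overlap in LCM embryos but overlapped in manual embryos. Both comparisons were added after the values were seen. The counts in LCM embryos come from libraries whose sums prompted the test. They describe that difference gene by gene and are no separate support for it. The rule had used the means of both kinds over both crosses. In LCM embryos at 5 DAP, 32 of 150 members were lower in MB and 2 higher, where 3.82% of 18511 genes were lower and 3.14% higher. The members' median log2 fold change was -0.85, that of all genes 0.02, and 130 of 150 members were negative. Of the 679 genes meeting both limits, 87 (12.8%) were lower and 5 higher. The count depended on single libraries: it was 70 without MB replicate 1, 20 without BM replicate 3, 18 without BM replicate 1, 15 without BM replicate 2, 12 without MB replicate 3 and 9 without MB replicate 2. That of higher members was 0 without BM replicate 1, BM replicate 3, MB replicate 2 or MB replicate 3, 1 without BM replicate 2 and 3 without MB replicate 1. The share of all genes called is not given for these fits. The shifts therefore cannot be read as particular to the members. DESeq2 called 62 lower and 4 higher, where 6.89% of all genes were lower and 5.65% higher, and 23.3% of the 679 were lower.

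The lower members included 6 of the first 12 in rank, GRMZM2G009804, AC199541.4_FG004, GRMZM2G460383, GRMZM2G091579, GRMZM2G366313 and GRMZM2G067424. GRMZM2G009804, with the values given above, had a log2 fold change of -1.94 ± 0.31 (adjusted p = 0.0095). GRMZM2G366313 had 17.2, 26.9 and 12.2 CPM in MB and 56.3, 138 and 304 CPM in BM (log2 fold change -3.40 ± 0.70, adjusted p = 0.047). GRMZM2G091579 had 51.2, 15.2 and 34.5 CPM in MB and 100, 144 and 106 CPM in BM (log2 fold change -2.0 ± 0.47, adjusted p = 0.045). In these 3 genes MB did not overlap BM. The adjusted p of GRMZM2G366313 rose to between 0.0754 and 0.133 without BM replicate 2 or any 1 MB replicate, and to 0.15 with the replicate number as a block. That of GRMZM2G091579 rose to between 0.0774 and 0.148 without any 1 BM replicate or MB replicate 3, and to 0.13 with the block.

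GRMZM2G312736 had 18.1, 11.2 and 10.2 CPM in MB and 64.8, 53.6 and 37.0 CPM in BM (log2 fold change -2.18 ± 0.32, adjusted p = 0.007). GRMZM2G366681 had 8.34, 15.2 and 10.7 CPM in MB and 56.8, 27.6 and 31.3 CPM in BM (log2 fold change -1.98 ± 0.29, adjusted p = 0.0071). Chalcone isomerase chi1 (log2 fold change -1.47 ± 0.36, adjusted p = 0.038) and cycD4 (-0.91 ± 0.20, adjusted p = 0.024) were also lower in MB. Ea1 was not called (log2 fold change -2.07 ± 0.55, adjusted p = 0.069).

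Higher in MB were AC194974.3_FG005, with 77.3, 151 and 174 CPM in MB and 49.4, 43.8 and 51.9 CPM in BM (log2 fold change 1.22 ± 0.25, adjusted p = 0.019), and GRMZM2G070475, with 98.0, 118 and 121 CPM in MB and 50.6, 59.4 and 56.0 CPM in BM (0.78 ± 0.19, adjusted p = 0.036). Neither overlapped between crosses. Leaving out 1 library lost the call of AC194974.3_FG005 in 5 of 6 cases, all but that without MB replicate 1 (adjusted p 0.0543 to 0.0776), and that of GRMZM2G070475 without BM replicates 1 or 3 or MB replicates 2 or 3 (adjusted p 0.101 to 0.143). With the replicate number as a block the adjusted p of GRMZM2G070475 was 0.057.

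The 5 embryo markers did not all lie the same way between crosses. The 5 embryo genes summed to 556 to 743 CPM in MB and 926 to 1723 CPM in BM of LCM embryos at 5 DAP, of which lec1 made 514 to 720 CPM in MB and 892 to 1685 CPM in BM. The meristem gene wus1 had 0.601 to 0.822 CPM in MB and 1.29 to 2.36 CPM in BM, so it and lec1 were lower in MB without overlap. The others were wox2a with 21.5 to 34.0 CPM in MB and 31.7 to 41.8 CPM in BM, kn1 with 0 to 11.1 CPM in MB and 0 to 0.635 CPM in BM, and yab14 with 0.371 to 26.9 CPM in MB and none in BM. The transfer layer and embryo-surrounding list summed to 6456 to 24506 CPM in MB and 2504 to 7170 CPM in BM, and the ovule list to 3.43 to 5.57 CPM in MB and 3.90 to 9.68 CPM in BM. Their part in the cross difference was not tested.

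Manual embryos at 5 DAP were a separate set of libraries for the same cross comparison at the same age. This comparison too was added after the values were seen. The members' mean sum was 471 CPM in MB and 638 CPM in BM, with overlapping ranges. The counts of this comparison describe that difference gene by gene and are no separate support for it. The rule used only the mean of manual embryos over both crosses. Of the 143 members tested, 35 were lower in MB and 3 higher, where 14.4% of 22060 genes were lower and 12.9% higher, and 7 members had too few reads. Of the 667 genes tested that met both limits, 95 (14.2%) were lower and 15 higher. The members' median log2 fold change was -0.35, that of all genes 0.01. Leaving out 1 library gave 25 to 44 lower members, and 5 higher members without BM replicate 2, with no share of all genes given for these fits.

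GRMZM2G029926 had 0.0722, 0.0749 and 0.751 CPM in MB and 4.95, 8.64 and 3.88 CPM in BM (log2 fold change -4.24 ± 0.63, adjusted p = 0.00029). Ea1, with the values given above, had a log2 fold change of -3.95 ± 0.59 (adjusted p = 0.00029). GRMZM2G312736 had 0.144, 0 and 0.188 CPM in MB and 1.43, 0.831 and 1.09 CPM in BM (-3.27 ± 0.79, adjusted p = 0.0083). In these 3 genes no MB library reached a BM library. GRMZM2G483275 fell by 3.23 on the log2 scale, with 1.80 to 2.38 CPM in MB and 13.0 to 22.6 CPM in BM.

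MADS42 had 2.31, 1.05 and 2.25 CPM in MB and 15.6, 15.9 and 16.5 CPM in BM (log2 fold change -3.16 ± 0.25, adjusted p = 1.2e-06), and TRAF29 had 2.96, 3.22 and 3.69 CPM in MB and 12.8, 14.4 and 13.3 CPM in BM (-2.11 ± 0.20, adjusted p = 5e-06). SMR4 was also lower in MB (-1.52 ± 0.45, adjusted p = 0.023). Higher in MB were GRMZM2G107711, with 15.2, 11.1 and 10.3 CPM in MB and 3.73, 1.16 and 2.41 CPM in BM (2.22 ± 0.33, adjusted p = 0.00025), GRMZM5G816289 (1.49 ± 0.32, adjusted p = 0.0037) and AC225176.2_FG003 (0.97 ± 0.33, adjusted p = 0.046). The call of AC225176.2_FG003 was lost without BM replicates 1 or 2 or any 1 MB replicate (adjusted p 0.052 to 0.193).

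A filter on low counts can keep a member through the cross in which it is higher, so counts by later level are given from the fit with no filter. There, 15 of the 24 members nearly without reads from 9 DAP were lower in MB and none higher, 19 of the 100 between were lower and 1 higher, and 1 of the 26 that kept at least 5 CPM was lower and 2 were higher. Over all 31683 genes of that fit, 10.1% were lower and 10.3% higher. Of the 679 genes meeting both limits, 14.3% were lower and 2.95% higher. These groups were formed after the later levels were seen. The crosses also differed in stage and tissue markers in these manual libraries: kn1 had 70.1 to 83.8 CPM in MB and 0.621 to 0.831 CPM in BM, yab14 had 79.3 to 88.7 CPM in MB and 0.882 to 2.02 CPM in BM, and the transfer layer and embryo-surrounding list summed to 1727 to 1792 CPM in MB and 8953 to 10157 CPM in BM. The 4 endosperm markers summed to 6.52 to 11.3 CPM in MB and 24.1 to 28.8 CPM in BM. The part of these differences in the members' lower level in MB was not tested.

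The crosses in LCM and in manual embryos at 5 DAP were compared over separate libraries. Of the 143 members tested in both, 123 were negative in LCM embryos, 102 in manual embryos and 90 in both. With most members negative in each collection, a large count negative in both does not show that the same genes differ. Called lower in MB in both were 7 members, 21.9% of the 32 and 20% of the 35, namely GRMZM2G091579, GRMZM2G067424, GRMZM2G474575, GRMZM2G426108, GRMZM2G167212, GRMZM2G312736 and GRMZM2G415390. These were 4.9% of the 143, against 216 (1.21%) of all 17834 genes tested in both. Of the 32, 30 were tested in manual embryos, where 24.5% of all members tested were lower in MB. The overlap was thus close to the share of members lower there anyway. The transfer layer and embryo-surrounding list had a higher mean sum in MB in LCM embryos (12585 against 5028 CPM in BM), with overlapping ranges. In manual embryos the list was lower in MB (1761 against 9616 CPM), without overlap. The part of these tissues in either cross difference was not tested.

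**Figure D5:**
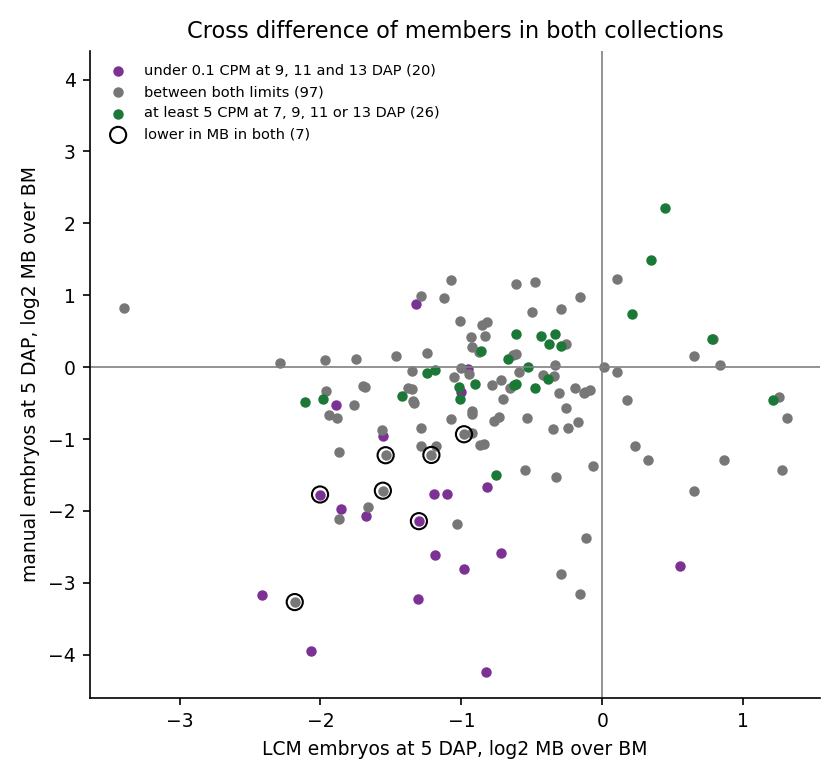
Log2 fold change of MB over BM for 143 members in LCM embryos at 5 DAP (horizontal) and in manual embryos at 5 DAP (vertical), coloured by the level kept from 7 to 13 DAP, with the 7 members called lower in MB in both ringed. Both fold changes are negative for 90 members.

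From 7 to 13 DAP few members were called between the crosses. Over 24 manual libraries, with age as a term, 11 of the 116 members tested were lower in MB and 1 was higher, where 5.19% of 23112 genes were lower and 7.15% higher, and 34 members had too few reads. GRMZM2G146004 had 0.827, 0.873 and 0.992 CPM in MB and 2.25, 2.36 and 2.46 CPM in BM at 7 DAP, without overlap, and a log2 fold change over the 4 ages of -1.29 ± 0.27 (adjusted p = 0.0034). GRMZM2G418343, the member called in LCM embryos, was lower here too (-1.43 ± 0.43, adjusted p = 0.029), with 1.41, 0.537 and 1.28 CPM in MB and 1.97, 2.81 and 2.24 CPM in BM at 7 DAP. That call was lost on leaving out BM replicate 2 or MB replicate 2 of 7 DAP, BM replicate 3 of 9 DAP or BM replicate 2 of 13 DAP (adjusted p 0.0521 to 0.0561). GRMZM2G415390 (log2 fold change -1.04 ± 0.29, adjusted p = 0.019) and cycD4 (-0.48 ± 0.14, adjusted p = 0.026) were also lower. GRMZM2G089493 was lower too (-1.38 ± 0.45, adjusted p = 0.043), a call that 16 of the 24 fits without 1 library lost, as did the fits with the replicate number as a block (adjusted p = 0.054) and with no filter (adjusted p = 0.052). The member higher in MB was GRMZM2G062066 (0.53 ± 0.14, adjusted p = 0.018), and without MB replicate 2 of 7 DAP 2 members were higher.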

How the data were processed

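Libraries were made from total RNA of pooled tissue and sequenced on an Illumina HiSeq2500, per the labels' protocols. The submitters' processing notes name TopHat, HTSeq, Cufflinks 2.2.1 and FastQC, with no order. The genome build was not given in the sources used here, nor was the annotation. Counting may ignore strand, so reads of antisense partners cannot be told apart. The authors deposited raw counts per gene model and library, in whole numbers. The deposited FPKM per gene model and library are the authors' normalised values. Replicates are biological per the labels.

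The members and lists were chosen with earlier results of these data known. CPM is the count over the library's total. Counts were tested with edgeR 4.0.16 (filterByExpr, TMM, estimateDisp, robust glmQLFit, glmQLFTest) in R 4.3.3, two-sided, with Benjamini-Hochberg adjustment over all genes tested in each of 7 comparisons, 2 of them added after the values were seen. Each comparison was fitted on its own libraries. SE is the log2 fold change over the square root of the F statistic. Alternatives were DESeq2 1.42.0 (Wald test), RLE size factors, no filter, the replicate number as a block, limma 3.58.1 on log2(FPKM + 1) where the mean FPKM reached 1, 1 fit over all 48 libraries, and leaving out libraries. Only the main edgeR fit of LCM embryos by age was also run on simulated counts, and its outcome is not used here. No other comparison or setting was simulated. With 3 libraries a group, no test other than a fit across all genes was used.

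Named are the 12 members of highest rank, those with an informative name, the 4 largest called changes in each direction of each comparison, the 5 highest members in manual embryos of 7 to 13 DAP, and ranks 148 to 153. Others named in the text were chosen after their values were seen. The names table of Zm-B73-REFERENCE-NAM-5.0 served only for names and neighbours. No sequences are shown, since none was at hand for these gene models.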

Additional observations from a re-analysis of the deposited data

Results flagged for a closer look

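In groups of 6 libraries, both crosses of a sample kind together, a library was marked when its gap to the nearest other library exceeded Dixon's critical share of the group's range, which chance gives for about 1 in 20 groups. The members' summed CPM was tried in the 8 sample kinds and the named members in both LCM kinds, and 13 of 96 values were marked, all of single members. In LCM embryos at 3 DAP, MB replicate 1 stood above the other libraries with 3479 CPM of GRMZM2G045082 (others up to 1856), 295 CPM of Ea1 (others up to 157), 117 CPM of chi1 (others up to 50.9), 112 CPM of GRMZM2G138441 (others up to 51.5) and 88.7 CPM of GRMZM2G415390 (others up to 29.7). BM replicate 3 did so with 89.3 CPM of SMR4 (others up to 38.7) and 188 CPM of MADS42 (others up to 96.2), and BM replicate 1 with 332 CPM of GRMZM2G107711 (others up to 106). In LCM embryos at 5 DAP, MB replicate 1 stood above the others with 103 CPM of GRMZM2G040020 (others up to 37.8), 95.4 CPM of GRMZM2G074293 (others up to 36.2) and 124 CPM of GRMZM2G118191 (others up to 27.1). BM replicate 2 did so with 799 CPM of GRMZM2G460383 (others up to 387) and 39.2 CPM of GNAT32 (others up to 17.1). Of the 13 marked values, 7 came from the pair of 3 DAP libraries that stood apart in the replicate correlations. For the change of the cross difference with age, edgeR called no member, while DESeq2 called 15.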

How the results depend on the processing

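RLE size factors moved no count of called members by more than 1.5 times. DESeq2 gave 49 members lower and 6 higher in LCM embryos by age, 6 lower and 1 higher between the crosses over both LCM ages, 15 called in the interaction, and 62 lower and 4 higher between the crosses in LCM embryos at 5 DAP. With limma on log2(FPKM + 1), 7 members were higher in LCM embryos by age, 5 were called in the interaction, 29 were lower from 7 to 13 DAP, 5 were lower and 0 higher between the crosses from 7 to 13 DAP, and 8 were higher in MB in manual embryos at 5 DAP. The fit over all 48 libraries gave 73 lower and 12 higher in LCM embryos by age and 5 higher from 7 to 13 DAP. No filter gave 1 called member in the interaction. Without both 3 DAP libraries that stood apart, 5 members were higher by age, 6 were lower and 1 higher between the crosses, and 6 were called in the interaction. Between the crosses, the 3 DAP libraries alone gave 0 lower members, where 0 of all 18597 genes were lower and 3 higher. The 5 DAP libraries alone gave 32 lower and 2 higher, where 3.82% of all genes were lower and 3.14% higher. With so few genes called at 3 DAP, these counts do not show that the members' cross difference was absent there. Leaving out 1 library gave 17 to 43 lower and 1 to 5 higher by LCM age, 0 to 3 lower and 0 to 1 higher between the crosses over both LCM ages, 0 to 4 in the interaction, 41 to 52 lower and 7 to 12 higher from 7 to 13 DAP, 9 to 12 lower and 1 to 2 higher between the crosses from 7 to 13 DAP, 9 to 70 lower and 0 to 3 higher between the crosses in LCM embryos at 5 DAP, and 25 to 44 lower and 2 to 5 higher in manual embryos at 5 DAP. Apart from the interaction, shares of all genes are not given for the fits without 1 library. Their ranges therefore cannot be read as particular to the members. The cause of these shifts was not tested. No named call changed direction.

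The main fits took libraries as unpaired. The deviations of same-numbered LCM libraries correlated from -0.234 to 0.325, and 7 of 12 correlated best with their own number. In manual embryos of 7 to 13 DAP these values were -0.540 to 0.574 and 11 of 24. In manual embryos at 5 DAP all 3 correlations were positive (0.0482 to 0.244), with 4 of 6. There the block raised the share of all genes called between crosses from 27.2% to 31.7%. These values cannot decide whether the numbers pair libraries. With the replicate block, 27 members were lower and 1 higher by LCM age, 1 lower and 0 higher between the crosses, 0 in the interaction, 47 lower and 9 higher from 7 to 13 DAP, 10 lower and 1 higher between the crosses from 7 to 13 DAP, 31 lower and 2 higher in LCM embryos at 5 DAP, and 38 lower and 4 higher in manual embryos at 5 DAP. Of all genes, 5.57% were lower and 2.39% higher by LCM age, and 27.9% and 27.3% from 7 to 13 DAP. Between the crosses, 0.0149% were lower and 0.00992% higher over both LCM ages, and 4.43% and 6.34% from 7 to 13 DAP. The shares were 3.18% and 2.71% in LCM embryos at 5 DAP, and 16.4% and 15.3% in manual embryos at 5 DAP.

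Of the 150 members, 94 stayed with at least 10 CPM in every LCM library, 99 with no limit on the manual level and 88 with FPKM in place of CPM, and 141 to 149 on leaving out 1 library. Depth limits members under about 1 CPM in manual embryos, where too few reads left 7 members untested at 5 DAP and 34 and 41 in the comparisons from 7 to 13 DAP.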
